A study of Mus musculus with 2 samples.

Results

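Matrix Gla protein (Mgp) and 9 further genes of the connective tissue matrix were followed in differentiating mouse ESCs. The 10 genes were taken by symbol from the 24354 genes in the FPKM table, a unit that divides fragments by transcript length and library size, and all 10 were found. They are Mgp, the small leucine-rich proteoglycans Dcn, Bgn, Lum, Fmod and Ogn, the large hyaluronan-binding proteoglycans Acan and Vcan, and the matricellular genes Postn and Spp1. Mgp, Postn and Spp1 do not encode proteoglycans, and they share the tissue with the others rather than the protein family.

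Poly(A) RNA was sequenced from 2 differentiating cultures, 1 of a control line (Diff–CONT) and 1 of a line with inducible loss of Ino80 (Diff–iKO). Ino80 is the ATPase of a chromatin remodeling complex. The study methods describe both lines as blastocyst-derived and homozygous for a floxed Ino80 allele, with CreER at the ROSA26 locus in the knockout line alone. The sample labels call the control line WT. Both cultures formed EBs, which were moved to gelatin on day 4 and fed from the next day with BMP4 and 0.5 µM 4-OHTM for 7 days. The control therefore shared the floxed allele, BMP4 and 4-OHTM, and lacked CreER. With 1 library per condition there is no replicate check and no p-value. A lower value in a bulk library can mean fewer cells of a type or less RNA per cell, and these cannot be told apart.

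Whole-series values that bear on the genes were as follows. The FPKM of low genes rose in steps of 1 fragment, which gave estimates of about 29980000 fragments on genes for Diff–CONT and about 22380000 for Diff–iKO. Intervals below are 95% intervals on these fragments and cover counting error only. Ino80 itself had an FPKM of 8.90 in Diff–CONT and 10.3 in Diff–iKO (log2 ratio 0.21, interval 0.11 to 0.31). The study followed the deletion in undifferentiated ESCs with primers inside the gene, and describes no such check for the differentiating cultures. An FPKM over the whole gene may not show the loss of a floxed segment. The value therefore does not check the label, and each direction is given for the Diff–iKO-labelled library. Summed over 8 genes, the markers of undifferentiated ESCs came to an FPKM of 446 in Diff–CONT and 2849 in the Diff–iKO-labelled library. Dppa5a made up 57.9% and 74.2% of these sums. The 12 markers of visceral and parietal endoderm summed to 374 and 94.7.

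Connective tissue matrix is a network of collagen fibrils and hyaluronan held together by proteoglycans. Small leucine-rich proteoglycans sit on collagen fibrils and set their width and spacing, while aggrecan and versican bind hyaluronan and retain water. Mgp is a vitamin K-dependent protein that keeps cartilage and vessel walls from calcifying. Matricellular proteins such as periostin and osteopontin signal to cells through integrins rather than bearing load.

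Across the 10 genes, 5 had a lower FPKM in the Diff–iKO-labelled library by at least the cut-off, namely Lum, Ogn, Dcn, Postn and Mgp, and 1 a higher, Spp1. The cut-off was a fold change of at least 2 with an FPKM of at least 2 in at least 1 library, thresholds taken from the study methods and applied here with no pseudocount. Among 12376 genes at or above the FPKM minimum, 8.39% were past the cut-off and lower and 6.73% were past it and higher, which is 1038 and 833 genes (1002 and 807 with 0.1 added to each FPKM). Among the members, 9 reached the minimum. Ogn did so only through the Diff–CONT library, so that 4 members were lower among those at the minimum in both, and Acan did not reach it. The median log2 ratio of these 9 genes was -1.02, and the median of the 12376 genes was -0.005. Without Ogn, the median of the members lay midway between the ratios of Mgp (-1.02) and Vcan (-0.44). The genes were chosen with earlier results of these libraries known, so the counts describe the genes and do not test them.

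**Figure D1:**
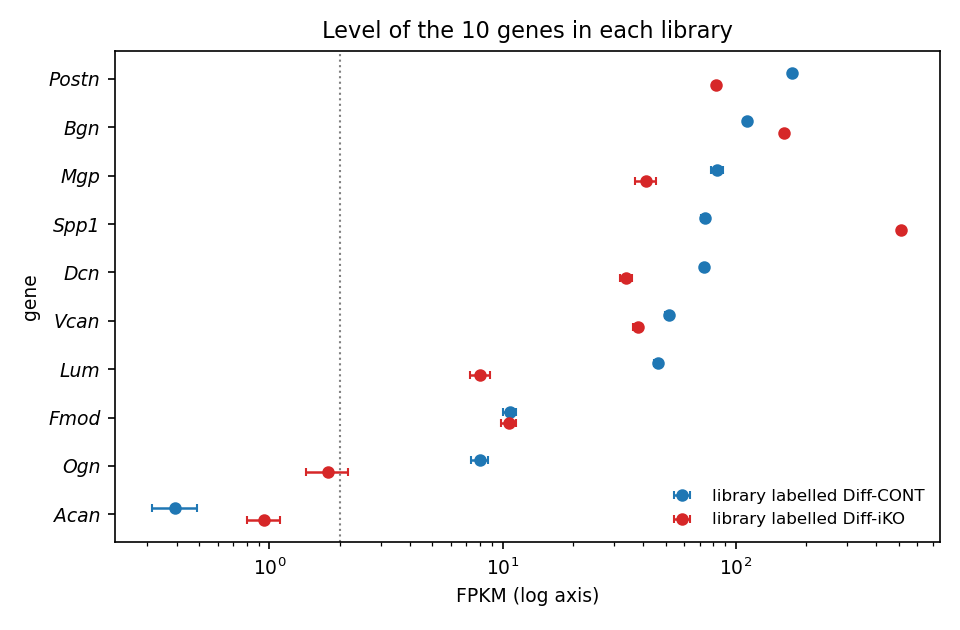
FPKM of the 10 genes on a log axis in Diff–CONT (blue) and the Diff–iKO-labelled library (red), with bars for the 95% Poisson interval of the fragments and a dotted line at the FPKM minimum of 2. Spp1 went from 73.6 to 508 and lay above all other members in the Diff–iKO-labelled library, while Lum went from 46.3 to 8.00.

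**Figure D2:**
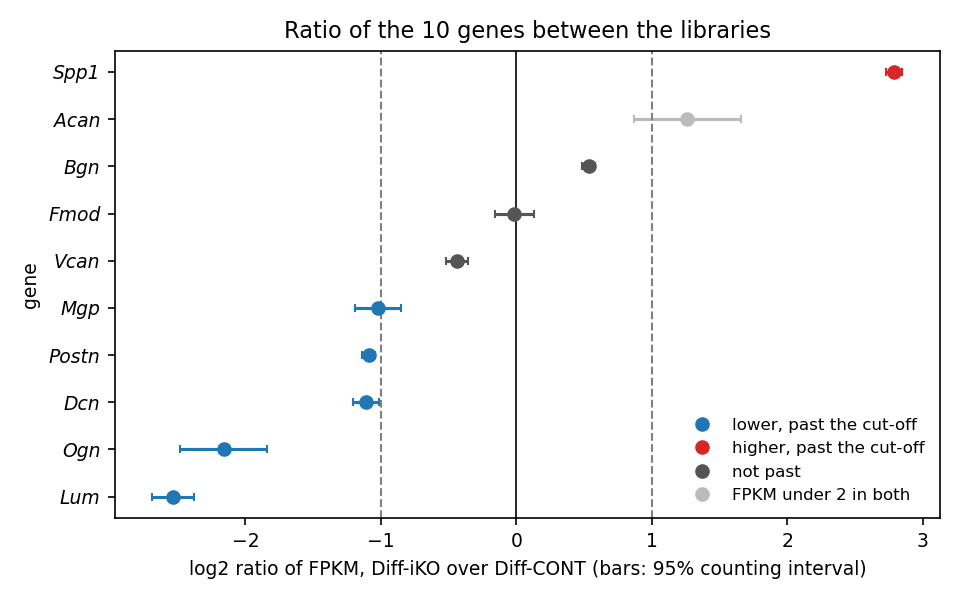
Log2 ratio of FPKM of each gene, with bars for the 95% counting interval and dashed lines at a fold change of 2. Lum (-2.53) and Ogn (-2.16) lay furthest to the left, Dcn, Postn and Mgp lay between -1.11 and -1.02, and Spp1 lay at 2.79.

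Mgp lies on chromosome 6 from 136872435 to 136875823 (GRCm38). Its FPKM was 83.2 in Diff–CONT and 41.1 in the Diff–iKO-labelled library, a fold of 2.03. Its transcript of 617 nucleotides is the shortest of the members, and the values rest on about 1066 and 393 fragments. The interval of the log2 ratio, -1.19 to -0.85, spans the cut-off at -1. Of the genes that reached the minimum, 11375 had a higher ratio than Mgp. The 3 genes nearest to Mgp in log2(FPKM + 1) over the 2 libraries were Mapk3 (distance 0.070), H2-K1 (0.071) and Ndufa2 (0.121), none of which is a matrix gene. With 2 libraries such nearness says little beyond an equal level and ratio.

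The enzymes on which Mgp depends differed less between the libraries than Mgp did. Ggcx, the carboxylase that modifies Mgp, was at an FPKM of 14.6 and 13.7 (log2 ratio -0.09), and Vkorc1, which recycles vitamin K, was at 51.2 and 41.9 (-0.29). Gas6, another Gla protein gene, was at 75.9 and 75.2 (log2 ratio -0.01). In the whole list of 20 genes of the vitamin K cycle, Gla proteins and mineralisation, 10 reached the FPKM minimum, 1 was past the cut-off and lower, 1 was past it and higher, and the median log2 ratio was 0.28. The higher gene was Alpl, the tissue-nonspecific alkaline phosphatase, at an FPKM of 34.7 and 156 (log2 ratio 2.17, interval 2.10 to 2.23). The lower gene was Ibsp, the bone sialoprotein gene, at 3.54 and 0.403, which reached the minimum in Diff–CONT alone. Ggcx, Vkorc1 and Ibsp are named outside the naming rule, after their values were seen.

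Of the 5 small leucine-rich proteoglycans, 3 were lower past the cut-off (Dcn, Lum and Ogn) and 2 were not past it (Bgn and Fmod). The set holds 2 genes of class I, 2 of class II and 1 of class III of the family, and within each pair the genes stood apart. In class I, Dcn (decorin, which binds collagen fibrils and TGF-beta) had an FPKM of 73.2 in Diff–CONT and 33.9 in the Diff–iKO-labelled library, a fold of 2.16. The log2 ratio was -1.11, with an interval (-1.21 to -1.02) that ends just past the cut-off. Bgn (biglycan, the closest relative of decorin) was at 111 and 161, 1.45-fold higher in the Diff–iKO-labelled library (log2 ratio 0.53, interval 0.49 to 0.58). The ratio of Dcn to Bgn, both in FPKM and so per length, was 0.658 in Diff–CONT and 0.211 in the Diff–iKO-labelled library.

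In class II, Lum (lumican, which spaces collagen fibrils in cornea, skin and tendon) had the lowest ratio of the 10 genes. Its FPKM was 46.3 and 8.00, a fold of 5.79, and the log2 ratio was -2.53 (interval -2.69 to -2.38). Among the 12376 genes, 12243 had a higher ratio. Fmod (fibromodulin, which competes with lumican for a site on collagen) was at 10.7 and 10.6, with a log2 ratio of -0.02 (interval -0.16 to 0.13). Counting error therefore bounds any difference in Fmod between these libraries well inside the cut-off. Lum exceeded Fmod 4.31-fold in Diff–CONT and was below it, at a ratio of 0.753, in the Diff–iKO-labelled library.

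In class III, Ogn (osteoglycin, also called mimecan) was at an FPKM of 7.97 and 1.78, a fold of 4.47 (log2 ratio -2.16, interval -2.48 to -1.84). The lower value rests on about 95 fragments. The intervals of Ogn and Lum overlap, as do those of Mgp, Dcn and Postn with each other, while no other pair of the 10 genes has overlapping intervals. As far as counting error can tell, the lower genes thus formed a pair with folds of 4.47 and 5.79 and a trio with folds from 2.03 to 2.16.

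The make-up of these proteoglycans differed more than their sum. The summed FPKM of the 5 genes was 249 in Diff–CONT and 215 in the Diff–iKO-labelled library. Bgn made up 44.6% of the sum in the first and 74.8% in the second. Dcn went from 29.4% to 15.7%, Lum from 18.6% to 3.72% and Ogn from 3.19% to 0.828%. Fmod, at 4.31% and 4.94%, kept about the same share.

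**Figure D3:**
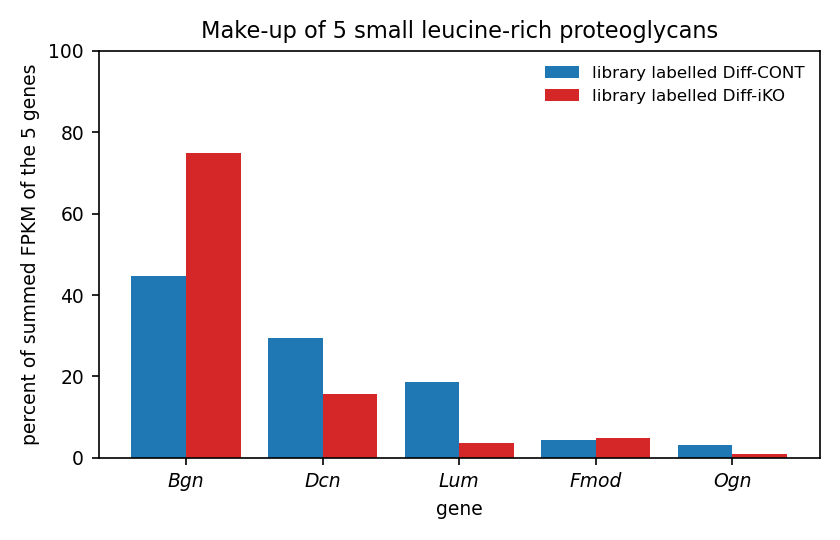
Share of each of the 5 small leucine-rich proteoglycan genes in their summed FPKM, in percent, in Diff–CONT (blue) and the Diff–iKO-labelled library (red). Bgn was the largest part in both libraries, at 44.6% and 74.8%, and the bars of Dcn, Lum and Ogn were lower in the Diff–iKO-labelled library.

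Several of these genes stand in clusters of the same family, and the neighbours were looked up. Dcn (chromosome 10, 97479609 to 97518143) and Lum (97565128 to 97572703) lie 47.0 kb apart on the same strand, and both were past the cut-off and lower. Their cluster also holds Kera, listed at 0 in both libraries, and Epyc, at 0.260 and 0. Ogn (chromosome 13, 49608046 to 49624501) has Omd, Aspn and Ecm2 within 75.3 kb. Aspn, which encodes asporin, was past the cut-off and lower as well (FPKM 3.12 and 0.436, log2 ratio -2.84, interval -3.55 to -2.18). Omd was at 0.170 and 0, and Ecm2 at 0.996 and 0.824. The cluster of Fmod (chromosome 1, 134037254 to 134048277) held no lower gene, with Prelp at 5.67 and 8.50 (log2 ratio 0.58) and Optc at 0.359 and 2.60. Optc was past the cut-off and higher on about 9 and 47 fragments. Bgn lies on chromosome X from 73483602 to 73495933, and no other gene of the family in the lists was within 500 kb of it.

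Beyond the members, 12 other genes of the leucine-rich family were listed, and 5 reached the FPKM minimum. Aspn was lower and Optc higher past the cut-off, 3 were not past it, and the median log2 ratio was 0.37. Aspn and Optc each reached the minimum in 1 library alone, so 0 of the 3 genes at the minimum in both were past the cut-off. Tsku, at an FPKM of 15.4 and 19.8, was the most abundant of them.

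The large proteoglycans were represented by Vcan. Vcan (versican, an early matrix component of heart cushions and mesenchyme) had an FPKM of 51.4 in Diff–CONT and 37.9 in the Diff–iKO-labelled library. The log2 ratio of -0.44 (interval -0.52 to -0.35) excludes 0 and lies inside the cut-off. Its 5 RefSeq transcripts run from 2273 to 12427 nucleotides, differ in the exons that carry chondroitin sulphate, and are not resolved by the value per gene. Acan (aggrecan, the main proteoglycan of cartilage) stayed under the FPKM minimum, at 0.395 and 0.946. These rest on about 85 and 152 fragments, and the log2 ratio was 1.26 (interval 0.87 to 1.66). Vcan and Acan lie on chromosomes 13 (89655312 to 89742509) and 7 (79053483 to 79115099).

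Among the partners of these proteoglycans on hyaluronan, Has2 and Hapln1 were lower past the cut-off. Of 19 listed genes for other hyalectans, link proteins and hyaluronan synthases and receptors, 8 reached the minimum, 4 were past the cut-off and lower, 0 were past it and higher, and the median log2 ratio was -0.85. Of the 4 lower genes, 3 reached the minimum only through Diff–CONT, and the 5 genes that reached it in both libraries had a median of 0.34. Has2, the main hyaluronan synthase of embryonic mesenchyme, was at an FPKM of 24.4 and 5.72 (log2 ratio -2.09, interval -2.23 to -1.96). Hapln1, the link protein that locks aggrecan and versican onto hyaluronan, was at 5.06 and 0.486 (log2 ratio -3.38, interval -3.79 to -3.00). Itih5 was at 5.08 and 1.97 and Stab1 at 2.16 and 0.560. Hapln1 and Stab1 are named after their values were seen, as is Col1a2 among the collagens. Hmmr and Cd44, both hyaluronan receptors, were at 30.6 and 38.9 and at 18.4 and 14.6, neither past the cut-off. Of 23 genes that build the chondroitin and dermatan sulphate chains, 1 was lower and 1 higher past the cut-off, with a median of 0.01 (-0.08 with the FPKM sum scaling). Over the 19 at the minimum in both libraries, 1 was lower and 0 were higher. Chst15, a chondroitin sulphotransferase, was the lower gene (FPKM 18.1 and 5.80). Chpf, part of the chondroitin polymerase, was at 27.3 and 49.0, and Chst12 at 28.8 and 41.1, neither past the cut-off. Of 10 proteases that cut proteoglycans and reached the minimum, 2 were lower past the cut-off, Adamts15 (12.5 and 4.00) and Adamts9 (25.7 and 11.3), and Bmp1, at 116 and 232, lay just under the cut-off upward with a log2 ratio of 0.997 (past it, at 1.01, with the upper quartile scaling). Mmp14, a membrane-bound metalloprotease, was at 173 and 184.

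Postn and Spp1, both matricellular, went opposite ways. Postn (periostin, which helps to crosslink collagen in mesenchyme and heart valves; chromosome 3, 54361109 to 54391037) had the highest FPKM of the 10 genes in Diff–CONT. It was at 174 there and at 81.8 in the Diff–iKO-labelled library, a fold of 2.13. The log2 ratio was -1.09 (interval -1.14 to -1.05). Spp1 (osteopontin, a phosphorylated glycoprotein of bone, macrophages and several epithelia; chromosome 5, 104435118 to 104441050) was at 73.6 and 508, 6.91-fold higher (log2 ratio 2.79, interval 2.73 to 2.85). By FPKM, Spp1 ranked 924 among all genes in Diff–CONT and 127 in the Diff–iKO-labelled library, and 100 genes had a higher ratio. Spp1 was 0.422 of Postn in the first library and 6.21 times Postn in the second.

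No neighbour of Spp1 that was looked up was past the cut-off and higher. Spp1 lies in a cluster with other genes of phosphorylated bone and tooth proteins, chosen for this look after the value of Spp1 was seen. Ibsp, 124 kb away, was past the cut-off and lower (log2 ratio -3.13, interval -3.94 to -2.41). Mepe was listed at 0 in both libraries, Dmp1 was at 0.699 and 1.07, and Pkd2, 18.4 kb away and outside the family, was at 22.9 and 14.7. Among 19 other matricellular genes that reached the minimum, 2 were lower and 3 higher past the cut-off, with a median log2 ratio of -0.18. Over the 18 at the minimum in both libraries, 2 were lower and 2 higher and the median was -0.30. Over the 19 genes, with both libraries scaled to the same FPKM sum, the median was -0.27. Thbs1 (thrombospondin 1) was at 228 and 595 (log2 ratio 1.38), Sparcl1 at 74.4 and 24.0 (-1.63) and Smoc2 at 17.7 and 6.17 (-1.52). Sparc, the most abundant of the list, was at 708 and 1244, a log2 ratio of 0.81 and not past the cut-off.

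The start regions of members that moved in different directions are shown to set their letters side by side. The RefSeq table (GRCm38.p6) held a start region for 7 of the 10 genes, and those of Mgp, Lum and Dcn were not among them. For Spp1 (higher), Postn and Ogn (lower) and Bgn (not past the cut-off), the 250 bases before the RefSeq start are given 5′ to 3′ on the gene strand, which is the plus strand in each. The RefSeq start can differ by some bases from the GENCODE start printed with each gene, and distances are counted from the RefSeq start. Capitals mark matches, on either strand, to TATAAA (the TATA box), TGANTCA (the letters AP-1 proteins bind), TGTGGT (a Runx core), AACAAT (a Sox core) and CAGATG (an E-box). The positions are chr5:104434861-104435110 for Spp1, chr3:54360857-54361106 for Postn, chr13:49607765-49608014 for Ogn and chrX:73483351-73483600 for Bgn.
Spp1: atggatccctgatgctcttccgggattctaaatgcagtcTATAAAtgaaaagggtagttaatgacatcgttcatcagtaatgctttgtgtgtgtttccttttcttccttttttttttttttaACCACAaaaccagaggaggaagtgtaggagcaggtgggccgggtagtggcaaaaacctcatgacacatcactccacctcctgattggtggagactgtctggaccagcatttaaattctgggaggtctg
Postn: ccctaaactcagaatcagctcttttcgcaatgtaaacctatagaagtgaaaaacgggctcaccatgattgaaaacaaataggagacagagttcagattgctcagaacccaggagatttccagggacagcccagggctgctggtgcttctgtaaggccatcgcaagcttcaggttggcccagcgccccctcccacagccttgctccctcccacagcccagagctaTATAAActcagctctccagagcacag
Ogn: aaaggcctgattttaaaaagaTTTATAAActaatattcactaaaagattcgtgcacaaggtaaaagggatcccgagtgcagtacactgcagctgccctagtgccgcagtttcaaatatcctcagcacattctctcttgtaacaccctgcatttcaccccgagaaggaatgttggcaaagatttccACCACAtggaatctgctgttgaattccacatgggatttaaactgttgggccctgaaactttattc
Bgn: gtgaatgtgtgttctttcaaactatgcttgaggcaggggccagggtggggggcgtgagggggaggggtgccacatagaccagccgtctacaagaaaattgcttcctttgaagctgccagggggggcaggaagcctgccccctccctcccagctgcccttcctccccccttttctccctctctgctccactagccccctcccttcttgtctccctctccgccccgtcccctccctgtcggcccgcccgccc

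The Postn region held TATAAA with its first base 26 bases before the start, the distance usual for a TATA box. In Spp1 the same letters began 211 bases before the start, and in Ogn they began 229 and 227 bases before it, as 2 overlapping matches on opposite strands. TGTGGT, the core letters of a Runx site, was found on the reverse strand of Spp1 (128 bases before the start) and of Ogn (65 bases). Among all 32851 start regions of this length in the table, 12.4% held TATAAA and 14.0% held TGTGGT. The letters TGANTCA (6.75% of all regions), AACAAT (9.42%) and CAGATG (14.4%) were in none of the 4 regions printed, and CAGATG was in that of Fmod. The G and C content was 64.4% for Bgn, 52.0% for Postn, 43.6% for Spp1 and 42.0% for Ogn, beside a median of 52.4% over the table. A match is a description of the letters and not a binding site.

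The order of the members by level was partly kept. In the Diff–CONT library it ran from Postn through Bgn, Mgp, Spp1, Dcn, Vcan, Lum, Fmod and Ogn to Acan. Spp1 and Dcn, at 73.6 and 73.2, had overlapping counting intervals there, and all other neighbours in the order were apart. In the Diff–iKO-labelled library the order ran from Spp1 through Bgn, Postn, Mgp, Vcan, Dcn, Fmod, Lum and Ogn to Acan, and only Mgp (41.1) and Vcan (37.9) overlapped. Spp1 made up 11.6% of the summed FPKM of the 10 genes in Diff–CONT and 57.4% in the Diff–iKO-labelled library.

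The collagens that these proteoglycans coat were compared in the same way. Of 10 fibrillar collagen genes that reached the minimum, 2 were lower and 1 was higher past the cut-off, and the median log2 ratio was -0.32. Col1a1 and Col1a2, whose products join in type I collagen, stood apart, at 0.447 and -0.998 on the log2 scale, and Col1a2 was past the cut-off, at -1.09, with both libraries scaled to the same FPKM sum. Col3a1, the partner of type I collagen in soft tissue, was at an FPKM of 386 and 187 (log2 ratio -1.04, interval -1.06 to -1.02), and Col2a1, the collagen of cartilage, at 89.9 and 21.2 (log2 ratio -2.08). Col5a3 was at an FPKM of 2.71 and 14.0 (log2 ratio 2.37). The 17 genes for collagen processing and crosslinking had a median of 0.08 (-0.017 with both libraries scaled to the same FPKM sum), with 2 lower (1 of the 16 at the minimum in both libraries) and 2 higher past the cut-off, Adamts2 (13.6 and 2.94) among the lower and Pcolce2 (2.58 and 7.19) among the higher. Serpinh1, the collagen chaperone, was at 747 and 764, and Loxl2, a crosslinking enzyme, at 141 and 187. Among 9 glypicans and syndecans, the proteoglycans of the cell surface, 3 were lower and 1 higher, with a median of -0.61. Gpc3 was at an FPKM of 659 and 199.9 (log2 ratio -1.72), Gpc6 at 22.1 and 10.04 (-1.14) and Gpc4 at 110 and 225 (1.03, interval 0.99 to 1.07), and Gpc2 was named after its value was seen, at 38.3 and 19.05 (-1.01). Gpc4 was no longer past the cut-off with the FPKM sum scaling (0.94), nor Gpc2 with the upper quartile scaling (-0.99). These differences between lists were not tested.

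**Figure D4:**
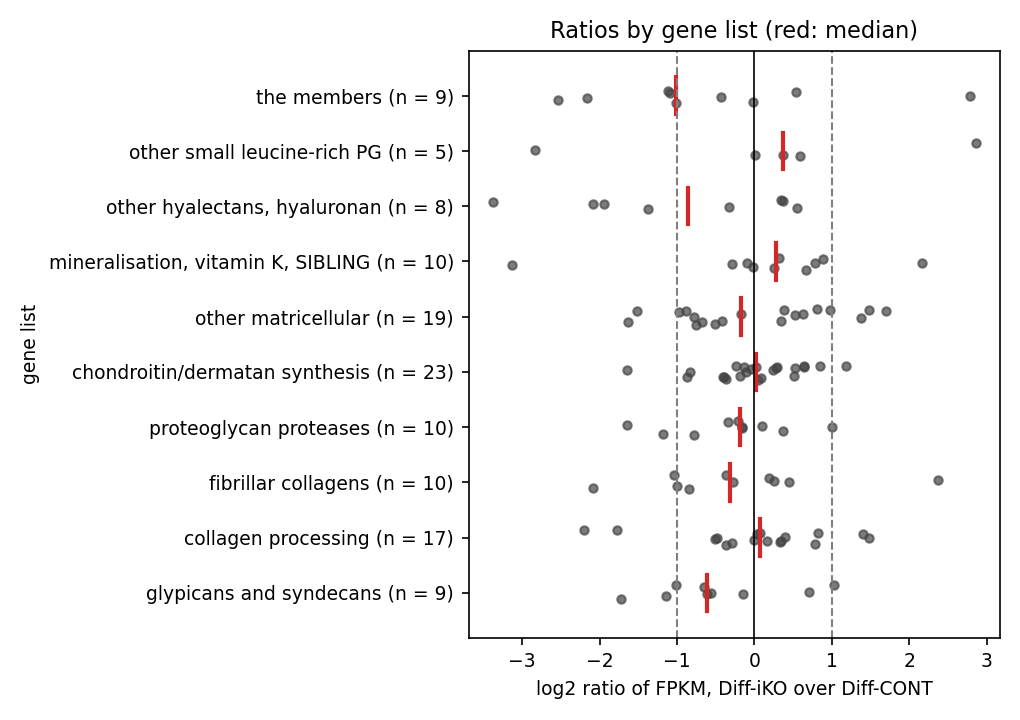
Log2 ratio of FPKM for genes with FPKM of at least 2 in at least 1 library, by gene list, with the median of each list as a red line and dashed lines at a fold change of 2. The median of the 9 members shown was -1.02. Over the members at the minimum in both libraries it lay midway between Mgp (-1.02) and Vcan (-0.44). The median of the hyaluronan list was -0.85 (0.34 over its 5 genes at the minimum in both libraries). Those of the other lists lay between -0.61 and 0.37.

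Cell type markers were set beside the members, and their part in the results was not tested. The marker lists share genes with the gene lists above, among them Col3a1, Col2a1, Hapln1, Ibsp and Alpl, and are not separate from them. The fibroblast and mesenchyme list summed to 1775 in Diff–CONT and 1665 in the Diff–iKO-labelled library, and 5 of its 11 genes that reached the minimum were past the cut-off and lower (3 of the 9 at the minimum in both), with a median log2 ratio of -0.998. Col1a1, at 880 and 1199, made up 49.6% and 72.0% of the sums. Pdgfra, a surface receptor of mesenchyme, was at 19.1 and 4.65, Tcf21 at 3.49 and 0.128 and Pdgfrb at 39.3 and 26.3, while 0 genes of the list were past the cut-off and higher. Chondrocyte markers summed to 158 and 80.4, with 4 of 9 lower (2 of the 6 at the minimum in both) and none higher past the cut-off, and Snorc was at 0 in both libraries. Col2a1 made up 56.8% and 26.4% of these sums. Col9a2, at 29.4 and 38.8, was not past the cut-off and made up 18.6% and 48.3%. Of 9 osteoblast markers, 7 stayed under the FPKM minimum, Bglap was at 0.0668 and 0, and the sum of 44.0 and 161 was mostly Alpl, which is also high in ESCs. Smooth muscle markers summed to 543 and 836, most of it Acta2 (263 and 337) and Tagln (230 and 445). Of the 7 that reached the minimum, 1 was lower past the cut-off (Mylk, 3.70 and 1.69), 1 was higher (Cnn1, 8.71 and 19.0) and 5 were not past it, and 0 of the 6 at the minimum in both were lower.

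Markers of further cell types were counted as well. Of 10 macrophage markers, 8 were under an FPKM of 1 in both libraries, Ptprc (0.0734 and 0.00893) and Adgre1 (0.0109 and 0.0146) among them. Csf1r (2.91 and 12.8) and Cd68 (10.5 and 27.1) were past the cut-off and higher. Trophoblast markers summed to 143 and 209, with 8 of 11 higher and 3 lower past the cut-off, and 3 higher and 1 lower of the 4 at the minimum in both libraries. Prl3b1, a placental prolactin, was at 1.82 and 22.4. The 3 lower genes were Hand1 (70.8 and 31.3), Cdx2 (4.00 and 0.705) and Eomes (5.25 and 1.48). Hand1 made up 49.7% of the Diff–CONT sum and 14.9% of the other. The markers of undifferentiated ESCs had 7 of 8 genes past the cut-off and higher and 0 lower. Sox2, at 42.7 and 68.2, was the gene not past it. Endoderm markers had 9 of 12 lower and 0 higher, and 4 lower of the 7 at the minimum in both. These marker genes are named after their values were seen.

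**Figure D5:**
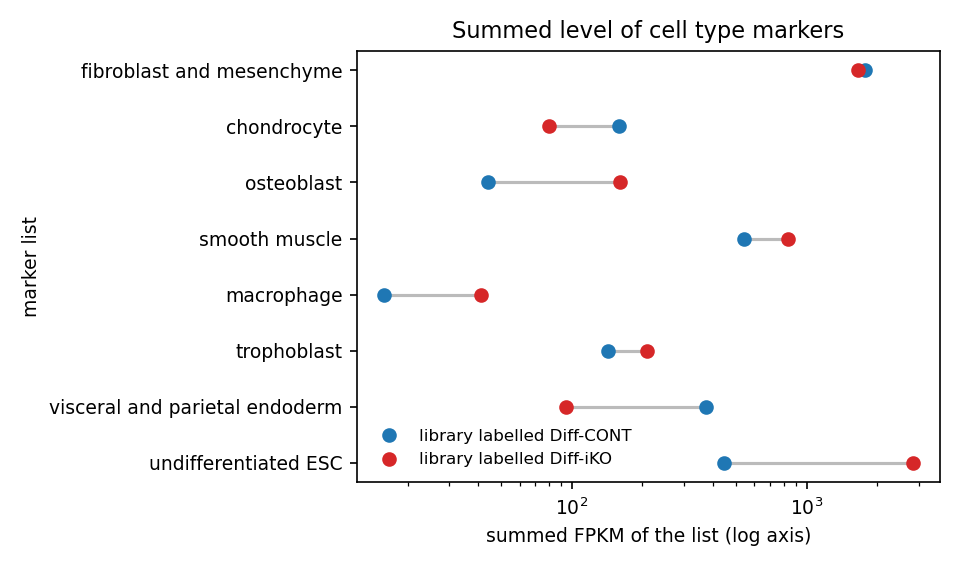
Summed FPKM of 8 marker lists on a log axis in Diff–CONT (blue) and the Diff–iKO-labelled library (red), each pair joined by a line. The fibroblast and mesenchyme sums lay close together at 1775 and 1665. The undifferentiated ESC sum went from 446 to 2849, of which Dppa5a made up 57.9% and 74.2%. The visceral and parietal endoderm sum went from 374 to 94.7.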

How the data were processed

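Poly(A) RNA of 1 Diff–CONT and 1 Diff–iKO culture was sequenced from 1 µg of total RNA each. The authors deposited FPKM values per gene. The labels and methods name STAR 2.7.9a, mm10, and Cuffquant and Cuffnorm of Cufflinks 2.2.1. The gene annotation and the strand setting are not given in the sources used here. Columns were assigned by name, and 0 other columns of values were present.

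The log2 ratio of Diff–iKO to Diff–CONT was taken per gene with no pseudocount. The cut-off was a fold change of at least 2 with FPKM of at least 2 in at least 1 library. Fragments were recovered from the steps of low FPKM values in 13072 genes that have a single RefSeq transcript of 1000 nucleotides or more, each length less 190 nucleotides. Of the low values, 86.7% (Diff–CONT) and 87.4% (Diff–iKO) lay within 0.2 of a whole fragment, against 40% by chance for a depth fixed beforehand. The depth and the 190 nucleotides were fitted to these same values, so the comparison is not an independent check. Where a gene has several transcripts, the shortest gave its fragments. Intervals are exact Clopper-Pearson (ratios) or Poisson (levels) at 95%. Positions are from GENCODE vM21 (GRCm38). The steps were tested on simulated data.

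The members, the 9 gene lists and the 8 marker lists were chosen with earlier results of these data known. Named genes are the 10 members, Ino80, up to 2 of the most abundant and 2 of the most different genes of each list, family neighbours within 500 kb and the 3 genes nearest to Mgp, and all others were named after their values were seen. Other pseudocounts, scalings, fold changes and FPKM minimums were tried as alternatives. Computations ran in Python 3.11.15 with scipy 1.17.1.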

Additional observations from a re-analysis of the deposited data

How the results depend on the processing

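The member counts and ratios, the counts over all genes, and the medians and calls of the lists were recomputed with pseudocounts of 0.1 and 1 and with 3 other scalings, which shifted every log2 ratio by -0.09, -0.006 and 0.02. Shares, level order and neighbours were not recomputed. Under these, the 9 members at the FPKM minimum kept their side of the cut-off. A pseudocount of 1 moved Ogn to -1.69 and took Acan, which is under the minimum, from 1.26 to 0.48, inside a fold change of 2. Fmod, whose interval spans 0, went from -0.015 to 0.0026 with the upper quartile scaling. Of the members past the cut-off, Mgp came closest to it, at -1.001 with the upper quartile scaling and -1.001 with a pseudocount of 1. With a fold change minimum of 4, 2 members (Lum and Ogn) stayed lower, and with no FPKM minimum 2 members were higher, Spp1 and Acan. Over all genes the lower and higher counts were 1226 and 719 with the FPKM sum scaling, and 712 and 646 with a pseudocount of 1. With other thresholds they were 569 and 488 with FPKM of at least 2 in both libraries and 2761 and 2794 with no minimum. They were 2177 and 1846 at a fold change of 1.5, and 237 and 278 at 4. These settings admit fewer or more genes by construction. A pseudocount of 1 moved the hyaluronan list to a median of -0.67. Scaling to the same FPKM sum moved the medians of other matricellular genes to -0.27, fibrillar collagens to -0.41, glypicans and syndecans to -0.70 and collagen processing to -0.017, which changed its sign, as did that of chondroitin and dermatan sulphate synthesis (-0.08). Chosen after the values were seen, a minimum of FPKM 2 in both libraries moved the median of the hyaluronan list to 0.34, the opposite sign, and of other matricellular genes to -0.30. Under that minimum the median of the members lay midway between Mgp (-1.02) and Vcan (-0.44). Under the pseudocounts and scalings, Nov, Chst7, Gpc2 and Gpc4 each lost their call under at least 1 setting, and Fbln5, Bmp1 and Col1a2 each gained one. In the marker lists Prrx1, Sox9, Mylk and Ascl2 lost theirs and Thy1, Des and Col1a2 gained one. No paired analysis was possible because each condition has 1 library, and no library could be left out for the same reason. Depth limits the low genes, such as Optc, Aspn, Ibsp, Tcf21, Acan and Ogn, whose intervals are wide.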
